A study of Mus musculus with 4 samples.

Results

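ATP-binding cassette (ABC) transporter genes were read in RNA sequencing of mouse colonic mucosa from Itch knockout (KO) and wild-type (WT) animals. The members are the 47 genes, of 19308 listed for every library, whose symbol is Abc, a subfamily letter from a to g, a number and at most an a or b. They comprise 14 genes of subfamily a, 9 of b, 10 of c, 4 of d, 1 of e, 3 of f and 6 of g. Tap1, Tap2 and Cftr also encode ABC proteins, but their symbols fall outside that pattern and they are described separately. The Itch KO group holds 2 libraries whose genotype is entered as Itch KO, from mucosa that the protocol calls inflamed. The WT group holds 2 libraries whose genotype is entered as C57BL/6, and all 4 samples carry inflammation as their state. The labels used here give no age, do not say how Itch was inactivated or in which cells, and are silent on whether the replicates are different mice. The p-values therefore describe variation among these 4 libraries, and whether that is variation between mice is not known.

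ABC proteins bind and hydrolyse ATP, and most use that energy to move lipids, bile salts, drugs, conjugated metabolites or peptides across a membrane. Intestinal epithelium is known for efflux pumps on its luminal face, among them P-glycoprotein and ABCG2, that return drugs and plant compounds to the lumen, and for basolateral pumps that pass conjugates to the blood. Macrophages are known for ABCA1 and ABCG1, which export cholesterol. Subfamilies e and f lack membrane-spanning domains and act on ribosomes and translation.

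Total counts over the shared genes were 8181193 and 9463759 in the Itch KO libraries and 9674531 and 12199709 in the WT libraries. Itch, the targeted ubiquitin ligase gene, was at 11.9 and 13.4 CPM (TMM-scaled counts relative to library size) in Itch KO and 204 and 183 CPM in WT mucosa. Libraries of one genotype differed in markers of gut position. Hoxb13, a hindgut gene, was at 124 and 62 CPM in Itch KO mucosa and at 143 CPM in WT replicate 1, but at 1.63 CPM in WT replicate 2. A list of 9 squamous epithelium markers summed to 18.9 and 19.6 CPM in Itch KO, against 657 CPM in WT replicate 1 and 14.9 CPM in WT replicate 2. A list of 10 small intestine markers summed to 199.9 and 120 CPM in Itch KO, against 431 and 912 CPM in WT, with 6 of its 7 tested genes lower at an unadjusted edgeR p below 0.05, while Apoa4 of that list had 0 counts in all libraries but Itch KO replicate 2. Of 12 colonocyte markers 1 was lower at that threshold, and the list summed to 2623 and 1959 CPM in Itch KO, against 2687 and 2275 CPM in WT. In these bulk samples fewer cells of a type and less RNA per cell cannot be told apart.

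Across the family, the genes that were lower in Itch KO mucosa at an unadjusted p below 0.05 belonged to subfamilies a, b and c. Genes of d, e and f differed little. The edgeR quasi-likelihood test called no member at a Benjamini-Hochberg adjusted p below 0.05, and 0.00% of the 16956 genes tested, and limma voom called 0 genes as well. Of the 44 members tested, 8 were lower and 1 was higher at an unadjusted edgeR p below 0.05. That is 20.5% of the members in either direction, against 19.7% of all tested genes, so the share of genes below the threshold was near the background. The lower members made up 18.2% against 9.52% of all genes, and the higher member 2.27% against 10.2%. The 8 lower members were Abca3, Abca6, Abca8a, Abca8b, Abcb1a, Abcb4, Abcc2 and Abcc6, and the higher one was Abcg3. Of these, Abca6, Abcb4 and Abcc2 reached the count filter in both libraries of WT only, and the share of lower members includes them. Both Itch KO libraries lay below both WT libraries for 13 members (29.5%, against 26.0% of all tested genes) and above them for 7 (15.9%, against 30.0%).

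DESeq2, run as an alternative, called 7 members at an adjusted p below 0.05, 6 of them lower and 1 higher. It called 10.5% of the 16298 genes it tested, 1706 in all, of which 815 were lower, and 891, or 5.47%, higher. The members were Abca3, Abca8a, Abca8b, Abcb1a, Abcc2 and Abcc6, lower, and Abcg3, higher. Under 10 other settings of edgeR and limma the adjusted p of these 7 genes ran from 0.079 to 0.464. Abca8a, Abcb1a and Abcc2 were called by DESeq2 whichever library was left out. Without WT replicate 2 these 3 were the members called, among 886 genes in all, and without Itch KO replicate 2 Abca8b was called beside them, among 426 genes. Without Itch KO replicate 1 the 6 members called were Abca3, Abca8a, Abcb1a, Abcc2, Abcc6 and Abcg8, among 1237 genes, and without WT replicate 1, among 1163 genes, they were Abca12, Abca8a, Abcb1a, Abcc2, Abcc6 and Abcg3.

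**Figure D1:**
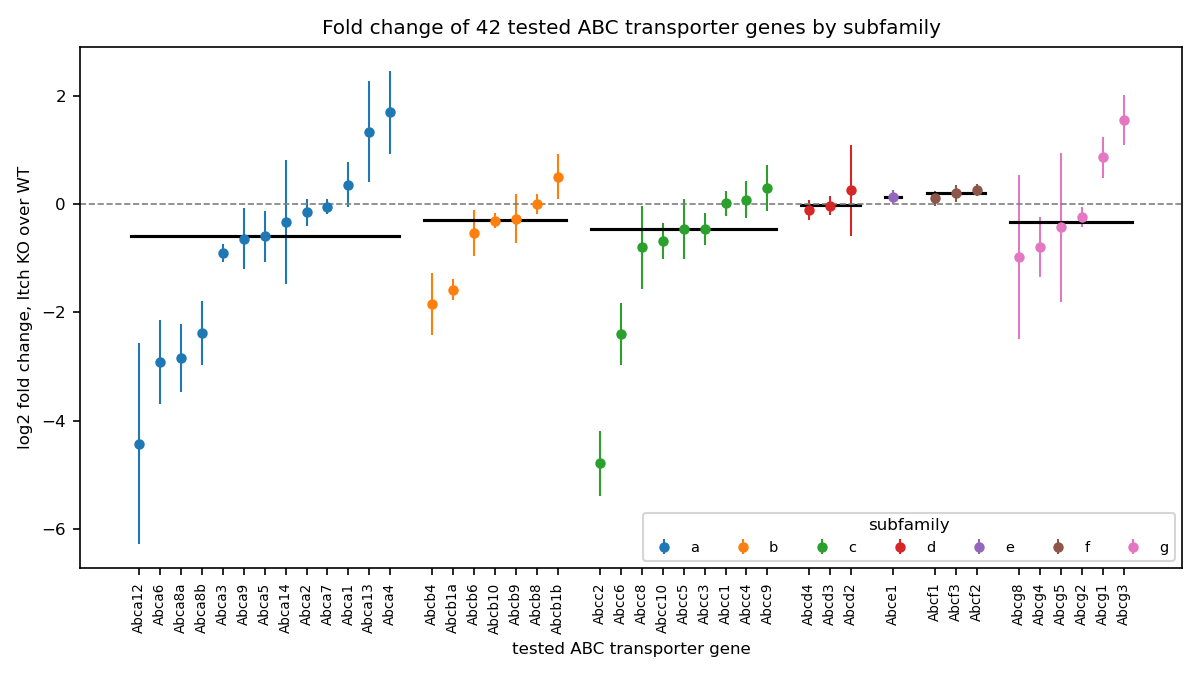
The vertical axis gives the log2 fold change of Itch KO over WT for each of 42 tested genes, with bars of 1 standard error and n = 2 libraries a genotype, and the horizontal axis orders genes within subfamilies a to g. Black bars are medians over all tested genes of a subfamily and the dashed line is the median of all tested genes at 0.01. Genes of subfamilies d, e and f lie between -0.11 and 0.26, while the a, b and c subfamilies reach -4.42, -1.84 and -4.78.

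By subfamily, the median log2 fold change was -0.60 over 13 tested genes of a, -0.30 over 8 of b, -0.46 over 9 of c and -0.33 over 6 of g. It was -0.01 over the 4 genes of d, 0.12 for the single gene of e and 0.20 over the 3 genes of f. All tested genes together had a median of 0.01, and the tested members one of -0.28, which was -0.062 without WT replicate 2 and -0.16 without Itch KO replicate 2. Of the members past the unadjusted threshold, 4 belonged to a, 2 to b, 2 to c and 1 to g. These are 30.8%, 25%, 22.2% and 16.7% of the tested genes of each subfamily, against 19.7% of all tested genes. The median of g depended on single libraries, at 0.52 without WT replicate 1 and 0.19 without Itch KO replicate 2. That of a was -0.15 without Itch KO replicate 1, that of b was -0.11 without WT replicate 2, and that of c ran from -0.87 without WT replicate 1 to -0.25 without WT replicate 2. Of the 44 tested members 6 reached the count filter in both libraries of one genotype only (Abca4, Abca6, Abca13, Abcb4, Abcc2 and Abcg8), so the counts and medians describe the genes that passed and not the family as a whole.

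**Figure D2:**
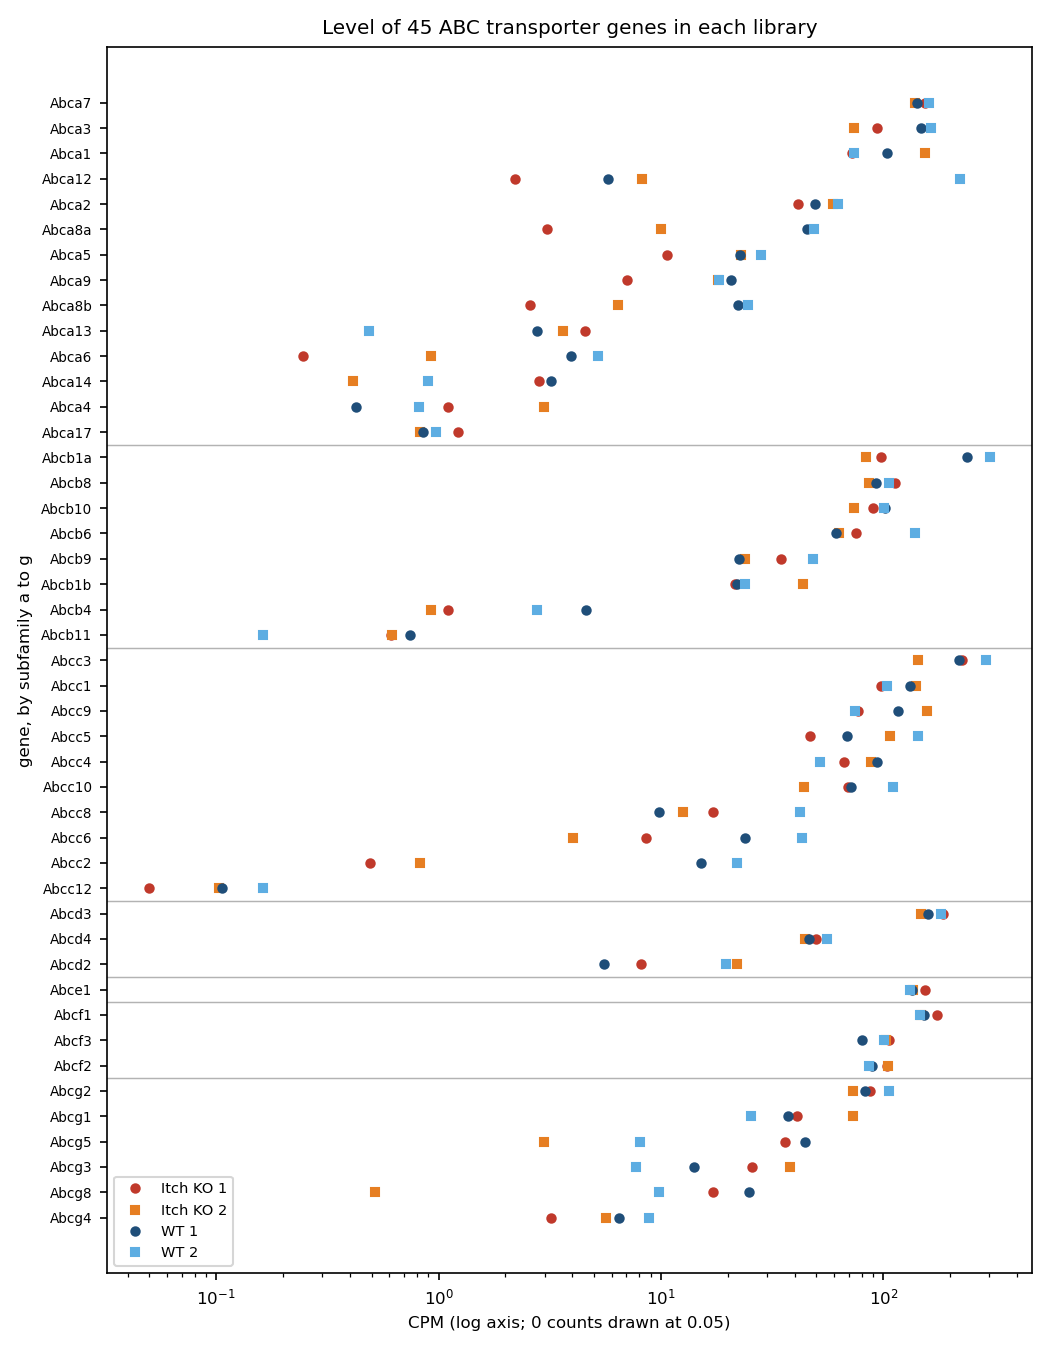
Each row is 1 of 45 genes, ordered within subfamilies a to g by mean level, and the horizontal log axis gives CPM in each of the 4 libraries, with a count of 0 drawn at 0.05. Abcb1a, Abca8a and Abcc2 show both Itch KO libraries to the left of both WT libraries, while the points of Abcd3 and Abca7 lie together.

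Abcb1a, which encodes the P-glycoprotein of mouse intestine and brain capillaries, was the member with the most counts per exon length in WT mucosa. Set per kb of exon it stood at a mean of 16.5 CPM per kb in Itch KO, the 11th of the 47 members, against 49.3 CPM per kb in WT, where it ranked 1. It was at 97.6 and 83.3 CPM in Itch KO mucosa, against 239 and 302 CPM in WT mucosa, with means of 90.5 ± 10 CPM in Itch KO and 270 ± 44.4 CPM in WT (n = 2 each, SD). The genotypes did not overlap. Abcb1a had a log2 fold change of -1.58 ± 0.19 (standard error), a 2.99-fold lower level (edgeR adjusted p = 0.123; DESeq2 adjusted p = 7.72e-11). With single libraries left out it ran from -1.72 to -1.41. Annotated antisense exons cover 10.1% of its exon bases, and their reads could not be separated.

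Abcb1b, the second P-glycoprotein gene of the mouse, neighbours Abcb1a on chromosome 5. It was at 21.6 and 43.6 CPM in Itch KO, against 22 and 24 CPM in WT. The genotypes overlapped, the log2 fold change was 0.51 ± 0.41 (standard error), and it was -0.078 without Itch KO replicate 2. Abcb1b made up 18.1% and 34.3% of the counts of the 2 genes together in Itch KO, against 8.43% and 7.36% in WT. Abcb4, the third gene of that cluster and the phosphatidylcholine transporter of bile canaliculi, had 9 counts in each Itch KO library, against 43 and 34 counts in WT (log2 fold change -1.84 ± 0.57, edgeR adjusted p = 0.208). Abcb1a lies at chr5:8660077-8748575, Abcb1b at chr5:8798147-8866315 and Abcb4 at chr5:8893717-8959231, all on the plus strand of GRCm38.

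The coding sequences of the P-glycoprotein pair are 3828 bases each and 88.1% identical over 3819 aligned bases. Of the 50-base windows of Abcb1a, 20.3% also occur unbroken in Abcb1b, and of the 100-base windows 9.84%, so reads of such stretches cannot be told apart and the division of counts between the 2 genes is uncertain there. Their longest unbroken shared stretch is 338 bases. A window of 300 spliced coding bases, 20 before the stretch and the rest inside it, is printed from GENCODE M21 transcripts on GRCm38 to show how alike the pair is, with capitals at the 1 base that differs. In Abcb1a it holds coding bases 1337 to 1636, from exon 12 to exon 14, with its ends at chr5:8702277-8702886. In Abcb1b it holds coding bases 1346 to 1645, also from exon 12 to exon 14, with its ends at chr5:8824597-8825206.
Abcb1a: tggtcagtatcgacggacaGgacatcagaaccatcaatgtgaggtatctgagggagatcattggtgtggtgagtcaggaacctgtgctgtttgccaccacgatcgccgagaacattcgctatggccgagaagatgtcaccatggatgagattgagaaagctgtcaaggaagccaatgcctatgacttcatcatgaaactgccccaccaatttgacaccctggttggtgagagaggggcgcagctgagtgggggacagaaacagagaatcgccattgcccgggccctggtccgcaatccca
Abcb1b: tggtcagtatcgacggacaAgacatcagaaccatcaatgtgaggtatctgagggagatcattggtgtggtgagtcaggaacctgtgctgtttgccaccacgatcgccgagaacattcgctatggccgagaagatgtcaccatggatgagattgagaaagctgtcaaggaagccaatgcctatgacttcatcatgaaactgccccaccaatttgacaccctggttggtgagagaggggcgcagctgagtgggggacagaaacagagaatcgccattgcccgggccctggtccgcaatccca

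**Figure D3:**
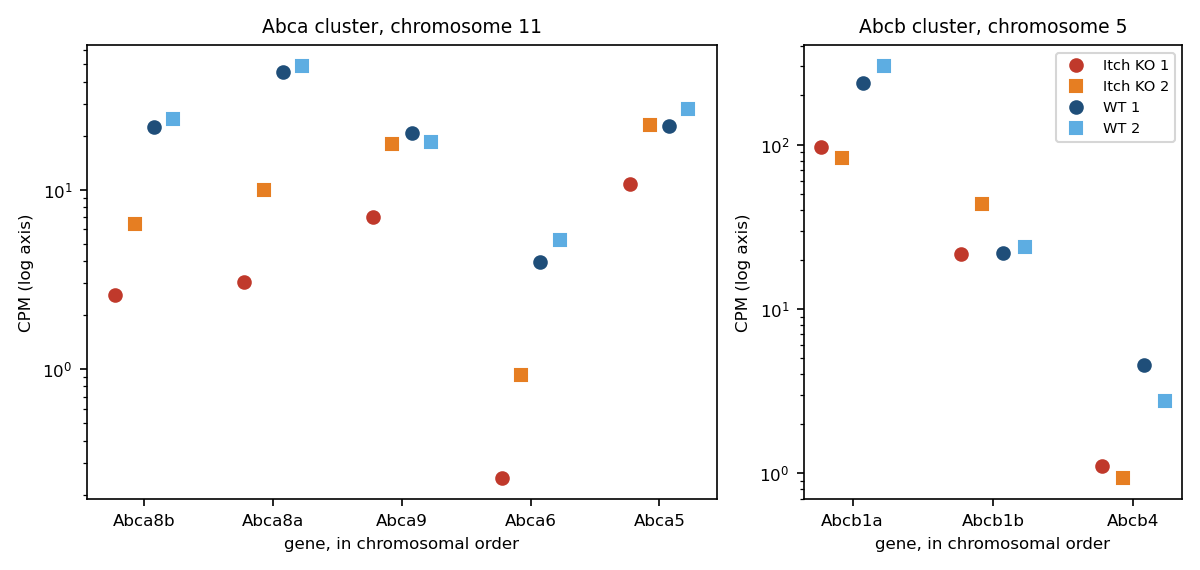
Points give CPM on a log axis in each library for neighbouring genes, in chromosomal order, with 5 Abca genes on the left and 3 Abcb genes on the right. Abcb1a is at 97.6 and 83.3 CPM in Itch KO against 239 and 302 CPM in WT, while the Abcb1b points overlap. Abca8a and Abca8b separate by genotype more widely than Abca9 and Abca5.

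Of the conjugate pumps of subfamily c, Abcc2 and Abcc6 were lower in both Itch KO libraries at the unadjusted threshold. Abcc2 (chr19:43782192-43840740, plus strand), the apical pump for glutathione and glucuronide conjugates, had 4 and 8 counts in Itch KO mucosa, against 142 and 271 counts in WT mucosa. These are 0.491 and 0.826 CPM in Itch KO, against 15.2 and 22.1 CPM in WT. Abcc2 had a log2 fold change of -4.78 ± 0.60, a 27.5-fold lower level (edgeR adjusted p = 0.123; DESeq2 adjusted p = 3.73e-08), and -4.48 without WT replicate 2. It was the most negative of the 44 tested members, but it reached the count filter in both libraries of WT only. With 4 and 8 counts in Itch KO mucosa, the size of its fold change is uncertain. The small intestine marker list moved the same way as Abcc2, and its part in the result was not tested.

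The promoter window of Abcc2, 250 bases before to 50 bases after the RefSeq start on GRCm38.p6, chr19:43782058-43782357, plus strand, is shown because the gene had the most negative fold change. Capitals mark matches, on either strand, to the TATA box TATAAA, the CCAAT box, the GC box GGGCGG, the nuclear receptor element AGGTCA, the AP-1 site TGACTCA and the E-box CACGTG. It holds AGGTCA, a core element that many nuclear receptors bind, at 49 bases before the start, and CCAAT on the minus strand at 2 places.
Abcc2: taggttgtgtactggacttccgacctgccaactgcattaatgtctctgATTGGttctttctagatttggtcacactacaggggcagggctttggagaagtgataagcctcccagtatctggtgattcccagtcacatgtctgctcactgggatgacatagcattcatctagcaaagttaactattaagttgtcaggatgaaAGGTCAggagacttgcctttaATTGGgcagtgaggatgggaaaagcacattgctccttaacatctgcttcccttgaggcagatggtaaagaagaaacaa
AGGTCA occurs in 16.3% of all 32851 promoter windows of this length and CCAAT in 37.4%.

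Abcc6, a pump of liver and kidney whose loss causes ectopic calcification, was at 8.6 and 4.03 CPM in Itch KO, against 23.9 and 42.9 CPM in WT. The genotypes did not overlap (log2 fold change -2.40 ± 0.57, edgeR adjusted p = 0.158; DESeq2 adjusted p = 0.00168). Abcc3, the basolateral pump for glucuronides and bile acids, was the subfamily's most abundant gene per exon length, at a mean of 32.4 CPM per kb in Itch KO and 44.6 CPM per kb in WT. It was at 226 and 143 CPM in Itch KO, against 219 and 289 CPM in WT, and the genotypes overlapped (log2 fold change -0.46 ± 0.29, edgeR adjusted p = 0.43). Abcc10, a lysosomal multidrug resistance protein, was lower in both Itch KO libraries, at 69.3 and 44.1 CPM against 71.7 and 111 CPM in WT, a separation narrower than the spread within each genotype.

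Abcc1, which exports leukotriene C4 and glutathione conjugates, was at 97.7 and 140 CPM in Itch KO, against 131 and 104 CPM in WT (log2 fold change 0.01 ± 0.24). Abcc4, a pump for prostaglandins and cyclic nucleotides, was at 66.6 and 87.6 CPM in Itch KO, against 93.9 and 52.2 CPM in WT (0.08 ± 0.34). Abcc5, which also carries cyclic nucleotides, was at 46.8 and 107 CPM in Itch KO, against 68.6 and 143 CPM in WT (-0.46 ± 0.55). For these 3 genes the genotypes overlapped and the edgeR adjusted p was at least 0.661. Abcg2, the breast cancer resistance protein and a luminal pump for dietary and porphyrin compounds, was the most abundant gene of g per exon length. It was at 87.2 and 73.2 CPM in Itch KO, against 82.9 and 106 CPM in WT, with a log2 fold change of -0.24 ± 0.19 and an adjusted p of 0.51 in edgeR. The overlap of Abcg2 and Abcc3 contrasts with Abcb1a, but differences between genes were not tested.

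Subfamily c also holds the regulatory subunits of ATP-sensitive potassium channels. Abcc9, the subunit of smooth and cardiac muscle channels, was at 76.8 and 157 CPM in Itch KO, against 117 and 74.7 CPM in WT. Abcc8, the subunit of endocrine cells, was at 17.2 and 12.6 CPM in Itch KO, against 9.82 and 42.1 CPM in WT. Both overlapped. Their pore-forming partners separated in opposite directions. Kcnj8, which pairs with the Abcc9 product, was at 67.5 and 127 CPM in Itch KO, against 45 and 35.9 CPM in WT (log2 fold change 1.27 ± 0.36, edgeR adjusted p = 0.188; DESeq2 adjusted p = 0.0249). Kcnj11, which pairs with the Abcc8 product, was at 0.369 and 0.103 CPM in Itch KO, against 1.49 and 5.05 CPM in WT (-3.77 ± 1.03, edgeR adjusted p = 0.185; DESeq2 adjusted p = 0.125). Both were below 0.05 in the unadjusted edgeR test. The Itch KO values of Kcnj11 lay at or below the level of 3 counts, and that gene reached the count filter in both libraries of WT only. Of 8 endothelial markers 0 were below an unadjusted p of 0.05, and they summed to 497 and 878 CPM in Itch KO, against 569 and 397 CPM in WT.

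The cholesterol exporters of macrophages, Abca1 and Abcg1, were higher in Itch KO replicate 2 than in the other libraries. Abca1, which loads cholesterol onto apolipoprotein A-I, was at 72.2 and 154 CPM in Itch KO, against 103 and 73.6 CPM in WT (log2 fold change 0.36 ± 0.42, and -0.28 without Itch KO replicate 2). Abcg1, which exports sterols to high-density lipoprotein, was at 40.8 and 73.1 CPM in Itch KO, against 37.3 and 25.4 CPM in WT (0.86 ± 0.38, edgeR adjusted p = 0.304, and 0.39 without Itch KO replicate 2). Abcg1 separated by genotype, by a narrow gap between Itch KO replicate 1 and WT replicate 1, and Abca1 overlapped. Beside them, 6 of the 9 listed macrophage markers were higher at an unadjusted edgeR p below 0.05, and the list summed to 717 and 983 CPM in Itch KO, against 539 and 359 CPM in WT. No marker of that list was at 0 in either genotype. Its part in the levels of Abca1 and Abcg1 was not tested.

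Abcg5 and Abcg8 encode the subunits of a sterol exporter that returns plant sterols and cholesterol to the gut lumen. Abcg5 was at 36.1 and 3 CPM in Itch KO, against 44.5 and 8.07 CPM in WT. Abcg8 was at 17.1 and 0.516 CPM in Itch KO, against 24.9 and 9.78 CPM in WT. Both genes were high in replicate 1 and low in replicate 2 of each genotype, with a 12.1-fold gap between the Itch KO libraries and 5.51-fold between the WT libraries for Abcg5. The genotypes overlapped, and the log2 fold changes were smaller than their standard errors, at -0.43 ± 1.37 for Abcg5 and -0.98 ± 1.51 for Abcg8. Both values depended on single libraries. With libraries left out in turn, Abcg5 ran from -3.13 without Itch KO replicate 1 to 1.28 without WT replicate 1, and Abcg8 from -5.03 without Itch KO replicate 1, where DESeq2 called it, to -0.0092 without Itch KO replicate 2. With the replicate number as a block the values were -0.83 ± 0.45 for Abcg5 and -2.14 ± 1.25 for Abcg8, with edgeR adjusted p-values of 0.418 and 0.444, and in limma voom Abcg8 was at -2.32. The edgeR adjusted p with all libraries was 0.879 for Abcg5 and 0.739 for Abcg8, and over the 10 other edgeR and limma settings it was at least 0.418 for Abcg5 and 0.233 for Abcg8. Abcg4, a sterol exporter of neurons, was at 3.2 and 5.68 CPM in Itch KO, against 6.51 and 8.88 CPM in WT.

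The pair is read outward from one start region, shown because the 2 genes shared their pattern over the libraries. Their RefSeq starts lie 110 bases apart on opposite strands, and their annotated exons share 82 bases, in which reads cannot be assigned to a gene without strand. The window of Abcg5, chr17:84682962-84683261 on the minus strand of GRCm38.p6, overlaps that of Abcg8 by 209 bases. Capitals mark the same 6 motifs as above, here TATAAA at 84 bases before the start of Abcg5 and CCAAT on the minus strand at the start itself.
Abcg5: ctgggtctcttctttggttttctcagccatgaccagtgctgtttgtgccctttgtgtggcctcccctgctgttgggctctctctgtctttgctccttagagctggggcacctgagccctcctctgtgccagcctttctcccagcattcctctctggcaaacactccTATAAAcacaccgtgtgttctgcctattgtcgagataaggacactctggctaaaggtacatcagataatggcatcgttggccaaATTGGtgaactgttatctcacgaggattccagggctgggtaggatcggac
TATAAA occurs in 13.6% of all windows of this length.

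**Figure D4:**
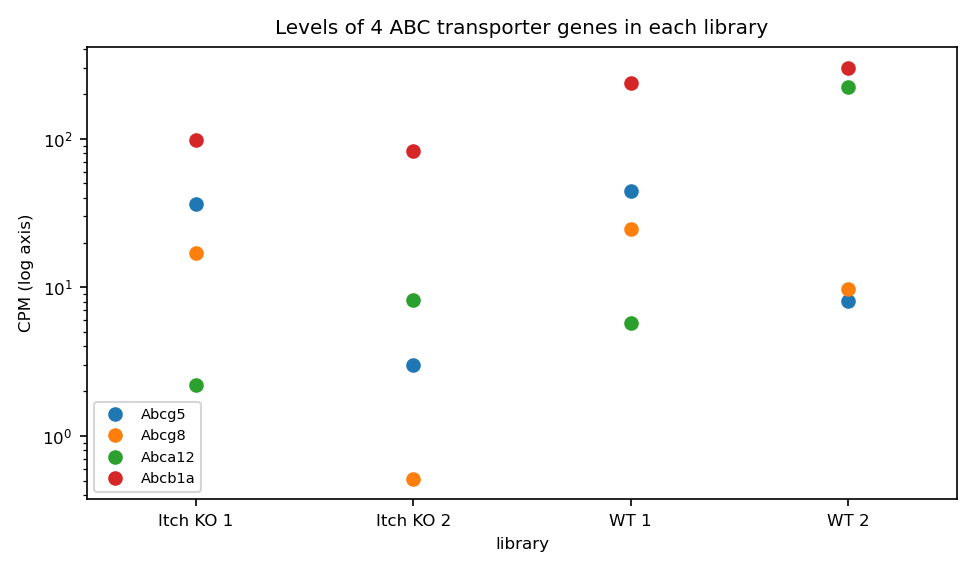
Points give CPM on a log axis for 4 genes in each library. Abcg5 and Abcg8 are lower in replicate 2 than in replicate 1 of each genotype, Abca12 reaches 222 CPM in WT replicate 2 against at most 8.26 CPM elsewhere, and Abcb1a separates by genotype.

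A run of 5 related genes of subfamily a on chromosome 11, in the order Abca8b, Abca8a, Abca9, Abca6 and Abca5, had negative log2 fold changes throughout. They belong to a branch of the subfamily whose substrates are less well known than those of Abca1. Abca8a (chr11:110025634-110095978) was at 3.07 and 10 CPM in Itch KO, against 45.3 and 48.8 CPM in WT (log2 fold change -2.84 ± 0.63, edgeR adjusted p = 0.149; DESeq2 adjusted p = 0.000181). Abca8b (chr11:109932190-109995845) was at 2.58 and 6.4 CPM in Itch KO, against 22.3 and 24.6 CPM in WT (-2.38 ± 0.58, edgeR adjusted p = 0.167; DESeq2 adjusted p = 0.00423). Abca6 had 2 and 9 counts in Itch KO, against 37 and 64 counts in WT (-2.91 ± 0.78, edgeR adjusted p = 0.179). These 3 genes separated by genotype, and all 3 were lowest in Itch KO replicate 1.

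The other two members of the run differed less. Abca9 was at 7 and 18 CPM in Itch KO, against 20.6 and 18.3 CPM in WT (-0.64 ± 0.56), and Abca5, a lysosomal protein, was at 10.7 and 22.9 CPM in Itch KO, against 22.7 and 28.1 CPM in WT (-0.60 ± 0.47). Itch KO replicate 2 lay just below WT replicate 2 for Abca9 and just above WT replicate 1 for Abca5. With single libraries left out, the log2 fold change of Abca8a ran from -3.92 to -2.23 and that of Abca8b from -3.17 to -1.87. Of 8 fibroblast and smooth muscle markers 1 was lower at an unadjusted edgeR p below 0.05, Myh11 of smooth muscle. The list summed to 1485 and 1971 CPM in Itch KO, against 2195 and 1444 CPM in WT. Pdgfra, the platelet-derived growth factor receptor of fibroblasts, was at 97.4 and 194 CPM in Itch KO and 168 and 141 CPM in WT.

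The coding sequences of Abca8a and Abca8b are 74.8% identical, and 2.18% of the 50-base windows and 0% of the 100-base windows of Abca8a occur unbroken in Abca8b, so sharing of reads concerns a small part of either gene. Their longest shared stretch, 97 bases, is shown with 20 bases on either side and capitals at the 3 bases that differ. It spans exons 15 and 16 of both genes, with its ends at chr11:110068827-110069469 in Abca8a and chr11:109964990-109966775 in Abca8b, minus strand of GRCm38.
Abca8a: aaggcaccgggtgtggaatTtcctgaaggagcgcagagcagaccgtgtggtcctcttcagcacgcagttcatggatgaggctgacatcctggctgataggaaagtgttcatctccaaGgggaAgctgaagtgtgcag
Abca8b: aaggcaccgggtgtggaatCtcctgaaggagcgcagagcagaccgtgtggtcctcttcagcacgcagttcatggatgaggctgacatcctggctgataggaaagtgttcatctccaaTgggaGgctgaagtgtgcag

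The promoter windows of the same pair, chr11:110095888-110096187 for Abca8a and chr11:109995796-109996095 for Abca8b, both minus strand of GRCm38.p6, are shown because the genes were low together. Capitals mark the 6 motifs named above.
Abca8a promoter: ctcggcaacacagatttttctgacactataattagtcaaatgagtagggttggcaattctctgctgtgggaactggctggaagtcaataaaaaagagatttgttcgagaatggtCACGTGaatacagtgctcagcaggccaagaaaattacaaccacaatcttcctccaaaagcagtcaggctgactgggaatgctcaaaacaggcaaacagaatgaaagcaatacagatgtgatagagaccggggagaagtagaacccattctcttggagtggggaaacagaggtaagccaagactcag
Abca8b promoter: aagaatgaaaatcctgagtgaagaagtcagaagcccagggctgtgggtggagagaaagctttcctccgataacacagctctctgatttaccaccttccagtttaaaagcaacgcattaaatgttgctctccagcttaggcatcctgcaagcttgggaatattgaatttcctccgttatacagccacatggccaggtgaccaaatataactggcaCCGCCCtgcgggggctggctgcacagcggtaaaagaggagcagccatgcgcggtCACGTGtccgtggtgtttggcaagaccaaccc
Both windows hold CACGTG, an E-box, at 136 bases before the start in Abca8a and 18 bases after it in Abca8b, and Abca8b also holds GGGCGG on the minus strand. CACGTG occurs in 7.15% of all windows. Counted by gene, in any of a gene's windows, it occurs in 5 of the 35 members with a RefSeq window (Abca1, Abca8a, Abca8b, Abcc4 and Abcf1). A share of windows and a count of genes cannot be compared directly.

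Of the other lipid transporters of subfamily a, Abca3 was lower in Itch KO mucosa and Abca7 and Abca2 overlapped. Abca3, which fills surfactant lamellar bodies in lung, was at 93.5 and 74.1 CPM in Itch KO, against 148 and 164 CPM in WT (log2 fold change -0.90 ± 0.17, edgeR adjusted p = 0.131; DESeq2 adjusted p = 0.00148). An antisense-strand transcript covers 9.75% of its exon bases, and its reads could not be separated. Abca7, the most abundant gene of the subfamily per exon length and a phospholipid transporter linked to phagocytosis, was at 155 and 138 CPM in Itch KO, against 142 and 161 CPM in WT (-0.05 ± 0.14). Abca2, an endosomal lipid transporter of myelinating cells, was at 41.4 and 59.3 CPM in Itch KO, against 49.4 and 62.7 CPM in WT (-0.15 ± 0.25).

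Abca12, the lipid transporter of the skin barrier, stood apart in 1 library. It was at 2.21 and 8.26 CPM in Itch KO, against 5.76 CPM in WT replicate 1 and 222 CPM in WT replicate 2, a 38.5-fold gap within WT. The squamous marker list summed to 657 CPM in WT replicate 1 and 14.9 CPM in WT replicate 2. Sis, the brush border sucrase gene, was at 0.369 and 0.31 CPM in Itch KO. In WT, Sis was at 1.71 CPM in replicate 1 and 172 CPM in replicate 2. The small intestine list that holds Sis summed to 431 CPM in WT replicate 1 and 912 CPM in WT replicate 2. Cubn, an endocytic receptor of proximal gut and kidney, was at 1.47 and 2.27 CPM in Itch KO, 4.69 CPM in WT replicate 1 and 221 CPM in WT replicate 2. The log2 fold change of Abca12, -4.42 ± 1.85 (edgeR adjusted p = 0.291), came from groups of which WT replicate 2 alone lay outside the Itch KO range. Abca12 and Cubn were chosen for description after their values were seen, as was Hoxb13. The part of gut position or cell type in the level of Abca12 was not tested.

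Transporters of mitochondria and lysosomes in subfamily b showed small differences. Abcb10, needed for heme synthesis, was at 89.5 and 73.9 CPM in Itch KO, against 101 and 101 CPM in WT. The genotypes separated, with the Itch KO libraries spread more widely than the WT libraries. Abcb8, of the inner mitochondrial membrane, overlapped at 112 and 86 CPM in Itch KO and 93.1 and 106 CPM in WT. Abcb6, a porphyrin transporter, was at 75.1 and 63.4 CPM in Itch KO, against 61.1 and 139 CPM in WT, and 55.2% of its exon bases are shared with an annotated same-strand transcript. Abcb9, a lysosomal peptide transporter, was at 34.8 and 24 CPM in Itch KO, against 22.5 and 48.2 CPM in WT, and it overlapped as well.

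Peroxisomal transporters of subfamily d and the translation factors of e and f had nearly the same levels in both genotypes. Abcd3, the most abundant of d per exon length and a carrier of branched and bile acid precursors, was at 186 and 147 CPM in Itch KO, against 159 and 181 CPM in WT (log2 fold change -0.03 ± 0.18). Abcd2, a carrier of very-long-chain fatty acids, varied more, at 8.11 and 21.9 CPM in Itch KO and 5.55 and 19.6 CPM in WT, while Abcd4, which handles cobalamin in lysosomes, was at 50 and 44.6 CPM in Itch KO and 46.1 and 55.7 CPM in WT. These 3 genes overlapped between genotypes.

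Abce1, the ribosome recycling factor, was at 154 and 136 CPM in Itch KO, against 135 and 131 CPM in WT (log2 fold change 0.12 ± 0.13). Abcf1, a partner of initiation factor eIF2, was at 173 and 148 CPM in Itch KO, against 152 and 146 CPM in WT (0.10 ± 0.14). Abcf2 was at 103 and 105 CPM in Itch KO, against 88.6 and 86.1 CPM in WT (0.26 ± 0.11, edgeR adjusted p = 0.299), and it had the most counts per exon length of any member in Itch KO mucosa, at a mean of 40.7 CPM per kb, against 34 CPM per kb in WT. Abcf3, which acts with the amino acid starvation pathway in yeast, was at 106 and 103 CPM in Itch KO, against 80.3 and 101 CPM in WT. Abce1, Abcf2 and Abcf3 lay higher in both Itch KO libraries, by differences whose edgeR adjusted p was at least 0.299.

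Abcg3 was the member that was higher at the unadjusted threshold. It encodes a rodent transporter related to Abcg2. It was at 25.6 and 38.2 CPM in Itch KO, against 14.1 and 7.74 CPM in WT (log2 fold change 1.55 ± 0.45, edgeR adjusted p = 0.199; DESeq2 adjusted p = 0.0466). The genotypes did not overlap, and DESeq2 called it without WT replicate 1 but not when any other library was left out. Leukocyte markers were high in the same libraries. The 8 T cell markers, of which 5 were higher at an unadjusted edgeR p below 0.05, summed to 220 and 296 CPM in Itch KO and 83.8 and 116 CPM in WT. The 7 B cell markers, of which 6 were higher, summed to 686 and 664 CPM in Itch KO and 152 and 130 CPM in WT. Neutrophil and mast cell markers were also higher, with 6 of 9 and 7 of 8 below the threshold. Their part in the level of Abcg3 was not tested.

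The members not yet described, Abca4, Abca13, Abca14, Abca17, Abcb11 and Abcc12, had at most 37 counts in a library. Abca13 was at 4.55 and 3.61 CPM in Itch KO, against 2.77 and 0.489 CPM in WT, and Abca14 at 2.83 and 0.413 CPM in Itch KO, against 3.2 and 0.896 CPM in WT. Abca4, the retinoid transporter of photoreceptors, had 9 and 29 counts in Itch KO and 4 and 10 in WT. Abca17, Abcb11 (the bile salt export pump) and Abcc12 did not pass the count filter, with at most 12, 7 and 2 counts in a library. A count of 3 corresponds to 0.244 to 0.369 CPM in 1 library, a limit that covers counting error only.

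Of the 3 ABC genes outside the symbol pattern, Tap1 and Tap2 were higher and Cftr was lower in both Itch KO libraries. Tap1, a subunit of the peptide transporter of antigen presentation, was at 197 and 202 CPM in Itch KO, against 110 and 77.7 CPM in WT (log2 fold change 1.09 ± 0.21, edgeR adjusted p = 0.131; DESeq2 adjusted p = 0.000992). Tap2, the other subunit, was at 83.4 and 93.1 CPM in Itch KO, against 55.2 and 54.2 CPM in WT (0.69 ± 0.13). Cftr, the chloride channel, was at 144 and 87.9 CPM in Itch KO, against 178 and 213 CPM in WT (-0.76 ± 0.28, edgeR adjusted p = 0.257). All 3 separated by genotype, as did 30.0% of all tested genes with Itch KO higher and 26.0% with Itch KO lower. None passed the edgeR test adjusted over all genes, and DESeq2 called Tap1 of the 3. Of 12 class I peptide loading partners of Tap1 and Tap2, 4 were higher and 0 lower at an unadjusted edgeR p below 0.05, with a median log2 fold change of 0.33. The 4 are 33.3% of that list, against 10.2% of all tested genes. Psmb9, an immunoproteasome subunit, was at 102 and 102 CPM in Itch KO, against 55.2 and 48 CPM in WT (DESeq2 adjusted p = 0.00148). Markers of leukocytes were higher in the same libraries, below the unadjusted threshold for 6 of 7 B cell and 5 of 8 T cell genes, and their part in these levels was not tested.

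Regulators and partners of the family were read from further lists. Of 14 nuclear receptors and other regulators of xenobiotic and bile acid genes, 3 (21.4%) were lower and 0 higher at an unadjusted edgeR p below 0.05. Their median log2 fold change was -0.36. Among all tested genes 9.52% were lower and 10.2% higher at that threshold. Nr3c1, the glucocorticoid receptor, was at 145 and 141 CPM in Itch KO, against 202 and 238 CPM in WT (DESeq2 adjusted p = 0.0084). Rxra, a common partner of nuclear receptors, was at 152 and 135 CPM in Itch KO, against 181 and 210 CPM in WT. Ppara, a fatty acid receptor, was at 5.04 and 2.17 CPM in Itch KO, against 10.5 CPM in WT replicate 1 and 103 CPM in WT replicate 2 (DESeq2 adjusted p = 0.000926). Of 14 listed uptake carriers of bile acids, organic anions and cations, 4 (28.6%) were lower and 0 higher, with a median of -0.69. Slc10a2, the ileal bile acid carrier, was at 7.13 and 3.31 CPM in Itch KO, against 27.3 and 95.5 CPM in WT (DESeq2 adjusted p = 1.96e-05). Slc51a, a subunit of the basolateral bile acid exporter, was at 1.35 and 2.58 CPM in Itch KO, against 6.08 CPM in WT replicate 1 and 108 CPM in WT replicate 2. The small intestine markers, highest in WT replicate 2, were lower in Itch KO alongside these carriers, and their part in the result was not tested. Slc10a2 and Fabp6 stand in both lists and are among the lower carriers, so the 2 lists are not independent.

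Of 21 tested partners of cholesterol efflux, 1 was higher and 3 were lower at the unadjusted threshold, with a median log2 fold change of 0.08. These are 4.76% and 14.3%, against 10.2% and 9.52% of all tested genes. Rxra, already counted among the regulators, is among the lower partners here as well. Apoe, an acceptor of effluxed lipid, was at 125 and 120 CPM in Itch KO, against 95.1 and 78.5 CPM in WT, and Npc1, which exports cholesterol from lysosomes, at 77.7 and 78.8 CPM in Itch KO, against 122 and 117 CPM in WT (DESeq2 adjusted p = 0.0239). Of 14 heme and iron-sulfur partners 2 (14.3%) were higher and 1 (7.14%) lower (median 0.24). Of 10 peroxisomal partners 0 were higher and 1 (10%) lower (median -0.18), and of 11 ribosome and translation partners 0 passed in either direction (median 0.12). No gene of these lists passed the edgeR test adjusted over all genes.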

How the data were processed

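Total RNA of colonic mucosa was sequenced on Illumina libraries, per the labels' protocols. For each library the authors deposited a file of raw gene counts. The submitters' processing notes list HTSeq 0.6.1, SAMtools 0.1.19, TopHat2 and CASAVA 1.8.2, and the builds GRCm38 and mm10; no source used here gives read length or strand. WT replicate 1 lists 19308 genes and the other files 39179, and the shared genes were tested. Reads outside genes (18.2% to 23% in the other 3 files) and ambiguous reads (2.67% to 3.03%) were left out of library sizes and tests. The highest count of any gene was 9389; whether high counts were capped or duplicates removed is not stated, and either would shrink fold changes of abundant genes.

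Members were found by symbol in the file of WT replicate 1. Abca15, Abca16 and Abcb5 are not listed there and were not compared. The test was the two-sided quasi-likelihood test of edgeR 4.0.16 in R 4.3.3 (TMM, filterByExpr with a minimum count of 10, robust, genotype only), adjusted by Benjamini-Hochberg at 0.05 over 16956 genes. DESeq2 1.42.0 and limma 3.58.1 were alternatives, and the procedure was tested on simulated data. There edgeR called 6 of 67 genes changed 2-fold, 34 of 66 changed 4-fold and 43 of 65 changed 8-fold. DESeq2 called 22, 44 and 55 of these. Of 16476 unchanged genes edgeR called 12 and DESeq2 88. A gene that edgeR did not call may therefore still differ. Exact permutation of 2 against 2 libraries cannot go below p = 0.333.

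Named genes were those of a list of known roles, members with an unadjusted edgeR p below 0.05, the most abundant gene per exon length in each subfamily, and members with an absolute log2 fold change of at least 1, a mean of at least 5 CPM and no overlap. Values of other members were added after theirs were seen, and 2 members, kept in the counts and medians, are not reported here singly. The members and lists were chosen with earlier results of these data known. Promoter windows come from RefSeq, which held 35 of the 47 members. The titles do not say that a replicate number pairs the libraries, so the numbers were not treated as pairs, and a block was run as an alternative. Deviations of libraries with the same replicate number had a correlation of 0.0481 across genes, which cannot decide whether they were paired.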

Additional observations from a re-analysis of the deposited data

Results flagged for a closer look

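Abca15, a gene that fits the symbol pattern but is not listed for WT replicate 1 and was therefore not compared, had 4 counts in Itch KO replicate 1, against 0 in Itch KO replicate 2 and 0 in WT replicate 2. It was noted because it lies outside the genes tested and above the level of the listed WT library. The counts of 1 library are close to the limit of 3 that a count of 0 allows, and no difference between genotypes can be read from them.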

How the results depend on the processing

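Of 275 log2 fold changes of 25 named genes under 11 alternatives, 253 kept their direction. The 15 genes without a reversal include Abcb1a, Abcc2, Abcc6, Abca3, Abca6, Abca8a, Abca8b, Abcb4 and Abcg3. The cause of the reversals below was not tested. The count of genes called at an adjusted p below 0.05 was 0 in each direction in edgeR with RLE factors, without a filter, with legacy=FALSE and with each library left out, and in limma voom with and without cyclic loess, while DESeq2 called 891 genes higher and 815 lower, 1 and 6 of them members. At an unadjusted edgeR p below 0.05, leaving out single libraries gave 893 to 1509 genes higher (1729 with all libraries) and 1133 to 1396 lower (1614), and 0 to 3 members higher (1 with all libraries) and 5 to 11 members lower (8 with all libraries). DESeq2, an alternative chosen after seeing the data for the libraries left out, called 0 to 1 members higher and 3 to 6 lower. With the replicate number as a block, edgeR called 0 genes and 0 members were higher and 9 lower at the unadjusted threshold, among 1322 genes higher and 1477 lower, while same-numbered libraries deviated together with a correlation of 0.0481. With single libraries left out, the median log2 fold change ran from -0.28 to -0.062 for the tested members, from -0.73 to -0.15 for subfamily a, from -0.53 to -0.11 for b, from -0.87 to -0.25 for c, from -0.16 to 0.048 for d, from 0.035 to 0.22 for e, from 0.15 to 0.23 for f and from -0.40 to 0.52 for g.

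Log2 fold changes of 10 genes turned sign, from values near 0 up to 0.51 in size. With RLE factors Abcc1 was at -0.013, with DESeq2 Abcc1 was at -0.013, with limma voom Abcc1 was at -0.0033, and with cyclic loess Abca7 was at 0.034 and Abcd3 at 0.063. Over the libraries left out, Abca1 ran from -0.28 to 0.80, Abca2 from -0.43 to 0.081, Abca7 from -0.13 to 0.039, Abcb1b from -0.078 to 0.92, Abcc1 from -0.26 to 0.25, Abcc4 from -0.29 to 0.59, Abcc5 from -1.17 to 0.17, Abcd3 from -0.21 to 0.14, Abcf1 from -0.018 to 0.22 and Abcg5 from -3.13 to 1.28. Depth limits the genes with under 10 counts in a library, Abcc2, Abcb4 and Abca6 in Itch KO mucosa among them.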
